A study of Mus musculus with 16 samples.

Results

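The genes described here were 9 regulators and markers of the choice between the resting B cell state, the germinal center and the plasma cell: Prdm1, Xbp1, Bach2, Bcl6, Sdc1, Zbtb20, Zbtb32, Ell2 and Mybl1. They were taken by symbol from a table of 27928 genes, and all 9 were present and passed the filter on low values, which left 14761 genes for testing.

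The study asked how loss of the transcription factor TFII-I, encoded by Gtf2i, alters the mature B cells of the mouse spleen, which are follicular (FO) or marginal zone (MZ) cells. RNA-seq was made from FACS-sorted FO cells (CD21lo CD23hi) and MZ cells (CD21hi CD23lo) of young adult C57BL/6 mice, which were either WT or Gtf2i fl/fl x CD19cre+ (cKO), with 2 libraries in each of the 4 groups. In the cKO the Cre is a B lineage driver, so deletion was directed to B cells, and the WT mice carried neither the floxed alleles nor the Cre. No source used here says whether 2 replicates came from separate mice, so p-values measure the spread between libraries, which may be technical. In cKO FO the 2 replicates differed in sex-linked transcripts, given below, so those 2 libraries did not hold the same cell material.

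Blimp-1 (encoded by Prdm1) drives a B cell towards antibody secretion by silencing the mature B cell programme, and XBP1 (Xbp1) enlarges the secretory apparatus. BACH2 (Bach2) and BCL6 (Bcl6) repress Prdm1 and hold cells in the B cell and germinal center states, and Blimp-1 in turn represses both. MZ B cells sit beside the blood stream in the spleen and turn into plasma cells faster than the recirculating FO B cells do.

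The start regions of the 3 genes at the center of this mutual repression are shown because they carry letters that resemble the binding motifs of the members themselves. Each line gives the 250 bases upstream of a RefSeq transcription start (GRCm38.p6, the build of the annotation and of mm10, the build in the submitters' notes), read 5′ to 3′ on the strand of the gene, with motif matches in capitals. The Prdm1 window (chr10:44458749-44458998, minus strand) held 1 match to TGANTCA, a loose BACH2 type core in which N stands for any base, here A. The Bach2 window (chr4:32417185-32417434, plus strand) held 1 match to TTCNNNGAA, a BCL6 type core, and, on the reverse strand, 1 match to AGNGAAAG, a Blimp-1 type core. The first Bcl6 window (chr16:23988853-23989102, minus strand) held 1 match to TTCNNNGAA, and the second (chr16:23981284-23981533, minus strand) held 3.
Prdm1: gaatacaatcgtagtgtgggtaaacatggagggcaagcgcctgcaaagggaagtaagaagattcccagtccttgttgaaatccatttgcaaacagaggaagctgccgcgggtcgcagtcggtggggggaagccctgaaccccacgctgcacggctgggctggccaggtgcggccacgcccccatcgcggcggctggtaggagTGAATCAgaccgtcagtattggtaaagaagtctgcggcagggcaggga
Bach2: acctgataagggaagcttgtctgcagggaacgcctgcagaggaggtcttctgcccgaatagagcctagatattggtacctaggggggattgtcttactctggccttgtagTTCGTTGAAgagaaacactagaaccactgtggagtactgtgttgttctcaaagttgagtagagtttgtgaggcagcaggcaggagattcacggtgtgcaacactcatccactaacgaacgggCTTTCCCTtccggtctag
Bcl6, first window: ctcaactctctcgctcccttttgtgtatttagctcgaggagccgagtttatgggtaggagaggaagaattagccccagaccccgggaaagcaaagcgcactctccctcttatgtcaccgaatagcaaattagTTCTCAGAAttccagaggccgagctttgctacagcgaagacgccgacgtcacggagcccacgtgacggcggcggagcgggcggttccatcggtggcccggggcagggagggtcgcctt
Bcl6, second window: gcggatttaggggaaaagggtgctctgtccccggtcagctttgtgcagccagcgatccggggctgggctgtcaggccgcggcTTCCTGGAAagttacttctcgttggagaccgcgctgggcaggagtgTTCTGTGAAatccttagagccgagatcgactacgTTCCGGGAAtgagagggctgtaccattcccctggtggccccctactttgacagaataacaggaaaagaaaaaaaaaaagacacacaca

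Both strands were searched and no matches overlapped. Of the 32851 start regions of the same length given by RefSeq, 6.75% held TGANTCA, 7.02% held TTCNNNGAA and 7.30% held AGNGAAAG, while the XBP1 type core GACGTG was in 5.20% of them and in none of the 10 windows of the 8 members listed (Mybl1 had no entry). A match of these letters is a description of the sequence and no evidence of binding.

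Depth was even, with 21546552 to 25083552 reads assigned to genes per library. Gtf2i, the targeted gene, was at 2039.8 and 1992 (WT) against 1523 and 1531 (cKO) normalized counts among the FO libraries. Among the MZ libraries it was at 2864 and 2471 (WT) against 1782 and 1889 (cKO). Every cKO library thus lay below both WT libraries of its subset, as for 13.1% of the genes tested in FO and 18.7% in MZ. Reads from the gene remained. Gtf2i was not called in cKO against WT in FO (log2 difference -0.40, limma adjusted p = 0.989) or in MZ (-0.54, 0.363). With both subsets in 1 estimate it was at -0.47 (limma adjusted p = 0.0348) and missed only the fold cutoff. Cr2 (CD21) ran from 22942 to 26803 over the FO libraries and from 86953 to 97087 over the MZ libraries, as the sort requires. Of sex-linked transcripts, Ddx3y reached at most 6.34 in a WT library and at least 2682 in a cKO library, and Xist was 14748 in cKO FO replicate 1, between WT (25929.5 to 47002) and the other cKO libraries (at most 89.7), so genotype and sex cannot be told apart in any cKO against WT value. In cKO FO replicate 2, Xist was 67.4 and Ddx3y 4439, against 14748 and 2682 in replicate 1. That replicate 1 thus also differed in Xist from the cKO MZ libraries. The part of sex in the FO against MZ values of cKO was not tested. One library stood apart: in cKO MZ replicate 1 the 12 granulocyte markers summed to 1917 and the 8 erythroid markers to 13402, against at most 117 and 1034 elsewhere. Without that library the log2 differences, FO minus MZ, of Bach2, Bcl6 and Sdc1 in cKO were 1.88, 2.10 and 3.41, and all 3 were still called.

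Between the B cell subsets, 4 of the 9 genes differed in WT mice. Bach2, Bcl6 and Sdc1 were higher in FO cells, by 3.91-, 3.82- and 6.78-fold, and Prdm1 was higher in MZ cells, by 3.73-fold. The same 4 genes were called in the same directions in cKO mice. Xbp1, Zbtb20, Zbtb32, Ell2 and Mybl1 were not called in either genotype. A call needed a limma p, adjusted over all genes tested by Benjamini-Hochberg, no larger than 0.05 and a fold of at least 1.5, and over the whole set of genes tested 4.62% were called higher in FO and 7.41% higher in MZ in WT, and 5.54% and 8.18% in cKO. In sorted bulk samples, a smaller share of cells that express a gene and less RNA per cell cannot be told apart.

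**Figure D1:**
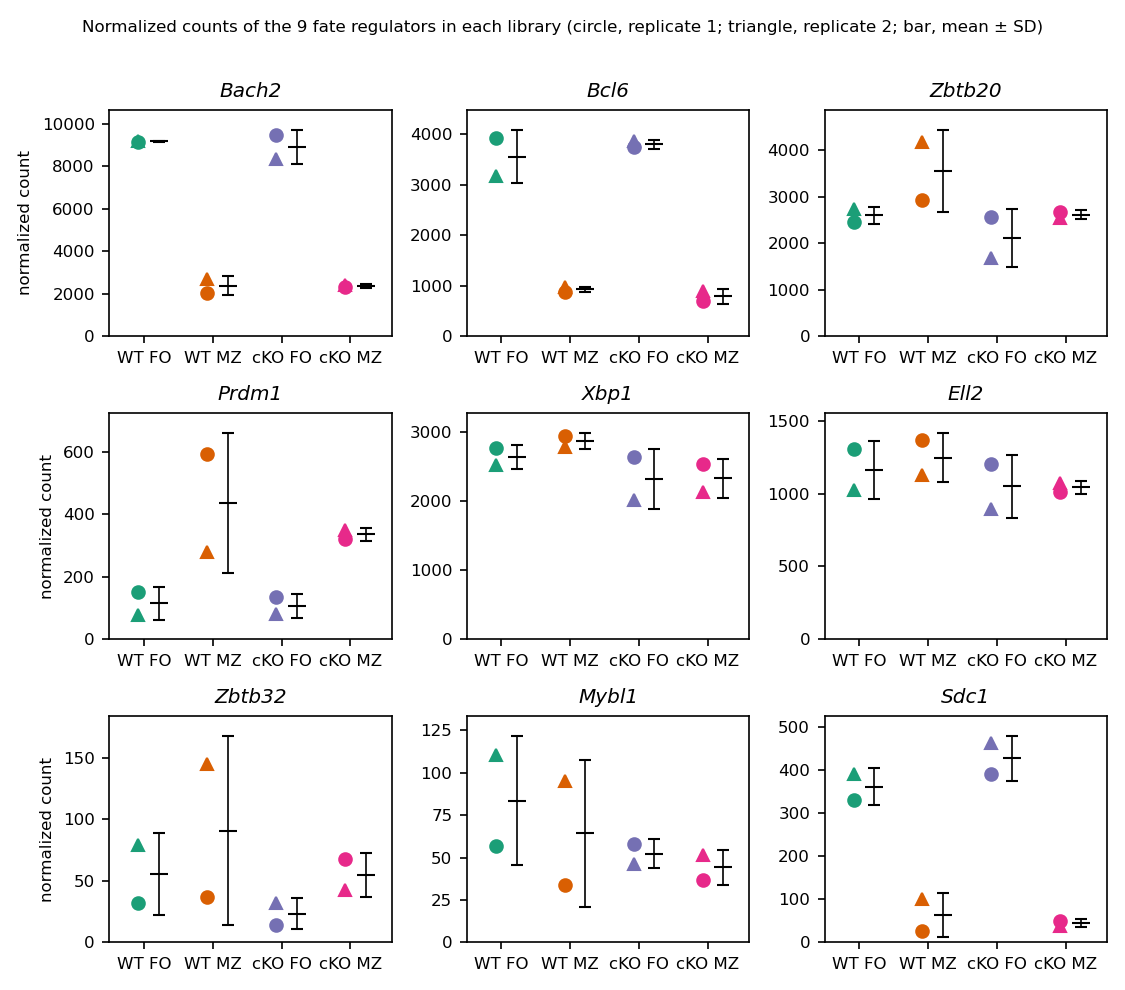
Normalized counts (vertical axes, linear from 0) of the 9 genes in the 8 libraries, by group along the horizontal axes, with circles for replicate 1, triangles for replicate 2 and a bar for the mean ± SD of 2. Bach2, Bcl6 and Sdc1 stand high in every FO library and Prdm1 in every MZ library, and in MZ cells both cKO points lie below both WT points for Xbp1, Zbtb20 and Ell2.

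Bach2, a repressor that delays plasma cell differentiation, had normalized counts of 9164 and 9209 in the FO libraries of WT mice and 9468 and 8345 in those of cKO mice. The MZ libraries held 2053 and 2685 in WT mice and 2296 and 2417 in cKO mice. Every FO library thus held more than 3 times the count of any MZ library. The log2 difference, FO minus MZ, was 1.97 ± 0.13 (SE) in WT and 1.92 ± 0.13 (SE) in cKO (limma adjusted p = 0.000163 and 0.000157). Bach2 lies at chr4:32238804-32586108 on the plus strand (GRCm38, GENCODE M21), and the antisense gene Bach2os shares 537 bases with its exons, or 5.40% of their length. Bach2os ran at 159.7 and 94.2 for FO and 26.0 and 38.9 for MZ cells of WT mice, low beside Bach2, and since no source used here gives the strand setting of the counting, reads in the shared bases cannot be assigned to 1 of the 2 genes.

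Bcl6, the master repressor of the germinal center reaction, followed the same order. Normalized counts for FO cells were 3925 and 3182 in WT mice and 3741 and 3860.1 in cKO mice, and for MZ cells 884 and 967 in WT mice and 688 and 887 in cKO mice. No FO library overlapped with an MZ library, and the lowest FO count was over 3 times the highest MZ count. The log2 difference, FO minus MZ, was 1.93 ± 0.15 (SE) in WT and 2.28 ± 0.15 (SE) in cKO (limma adjusted p = 0.000251 and 0.000129). The gene lies at chr16:23965052-23988852 on the minus strand.

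Prdm1 was the member that ran the other way. In WT mice its normalized counts were 153 and 77.1 for FO and 594 and 279 for MZ cells, and in cKO mice 134 and 80.5 for FO and 322 and 351 for MZ cells. All 4 MZ libraries lay above all 4 FO libraries, yet the WT replicates were far apart, with replicate 2 at 0.505 times replicate 1 in FO and 0.469 times in MZ. The log2 difference, FO minus MZ, was -1.90 ± 0.44 (SE) in WT and -1.68 ± 0.44 (SE) in cKO, with limma adjusted p of 0.0246 and 0.0341. The call was the least secure of the 4: in WT it was lost without WT FO replicate 2 (adjusted p = 0.0969), WT MZ replicate 1 (0.106), cKO MZ replicate 1 (0.0515) or cKO MZ replicate 2 (0.0522), and in cKO it was lost without any 1 of the 4 cKO libraries (limma adjusted p from 0.0690 to 0.164) or by quantile normalization (0.0578). Prdm1 lies at chr10:44437177-44528501 on the minus strand.

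Values of other genes are set beside the Prdm1 replicates. Irf4, an activator of Prdm1, was at 28655 and 10907 (FO) and 37342 and 13512 (MZ) in WT mice and at 27108 and 25256 (FO) and 22260.4 and 34149 (MZ) in cKO mice, so WT replicate 2 was low in both subsets, as for Prdm1. Its FO and MZ values overlapped in both genotypes. The 9 plasma cell markers summed to 16684 and 4113 for FO and 15349 and 10159 for MZ cells of WT mice, and to 2607 to 10711 over the cKO libraries, and the large sums of WT replicate 1 were mostly Ighg3 (12499 in FO and 10991 in MZ). Without Ighg3 the other 8 summed to 4184 and 3804 for FO and to 4358 and 8808 for MZ cells of WT mice, so in MZ replicate 2 was then the higher, the reverse of Prdm1. Of the 8 markers tested, 2 were called higher in MZ in WT and 1 in cKO, beside 7.41% and 8.18% of all genes tested. Derl3 was called in both genotypes and is counted again in the plasma cell programme below. The defining marker Tnfrsf17 was at or below 8.15 in every library. The 7 B-1 cell markers summed to 6187 to 9194 in FO and 11068 to 16304 in MZ libraries. Beside the same shares of all genes, 1 of 7 was called higher in MZ in WT and 0 in cKO. Bhlhe40 and Ptpn22 made up most of each sum (9054 and 6269 in WT MZ replicate 1), and Ptpn22 was the gene called. Cd5 was at or below 137 in every library. Spn was at 341 and 773 for FO and 98.2 and 418 for MZ cells of WT mice. The part of these genes in the Prdm1 difference was not tested.

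Sdc1, the gene of the surface marker CD138 by which plasma cells are usually sorted, was higher in FO cells, the opposite direction to Prdm1. FO cells had normalized counts of 331 and 392 in WT mice and 391 and 463 in cKO mice, whereas MZ cells had 27.0 and 101 in WT mice and 50.8 and 39.2 in cKO mice. Every FO library was above every MZ library, and the WT MZ replicates differed 3.73-fold. The log2 difference, FO minus MZ, was 2.76 ± 0.52 (SE) in WT and 3.22 ± 0.52 (SE) in cKO (limma adjusted p = 0.0107 and 0.00495). Without WT MZ replicate 1 the WT difference was 1.83 (3.56-fold), and without WT MZ replicate 2 it was 3.69 (12.9-fold), with Sdc1 called in both cases. In the WT MZ libraries, 7 of the 9 plasma cell markers were, like Sdc1, higher in replicate 2, Jchain among them (305 and 3692), and 2 were lower, Ighg3 (10991 and 1350.3) and Igha (1195 and 456). Fcer2a (CD23), a marker of FO cells, was also higher in replicate 2 (3069 and 6412), and the part of these genes in the Sdc1 spread was not tested. With only the 4 WT libraries in the fit, neither Sdc1 (limma adjusted p = 0.0723) nor Prdm1 (0.0931) was called. Sdc1 lies at chr12:8771323-8793715 on the plus strand.

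**Figure D2:**
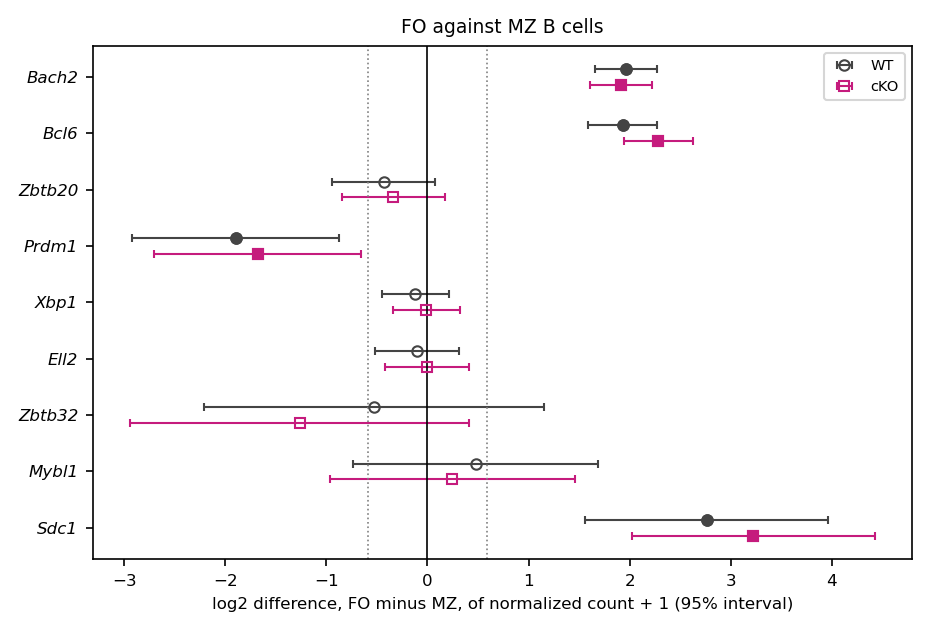
Log2 differences, FO minus MZ, of normalized count + 1 (horizontal axis) for the 9 genes (vertical axis) in WT (circles) and cKO (squares), with bars for the 95% interval, filled points for called genes and dotted lines at 1.5-fold. Bach2, Bcl6 and Sdc1 lie to the right in both genotypes and Prdm1 to the left, and the intervals of the other 5 genes reach 0.

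Xbp1, Ell2 and Zbtb20, which serve antibody secretion and plasma cell survival, were not called between the subsets. In WT mice Xbp1 had normalized counts of 2764 and 2520.2 for FO and 2947 and 2789 for MZ cells, and in cKO mice of 2632 and 2014 for FO and 2532 and 2129 for MZ cells. Ell2, an elongation factor that favours the secreted form of the immunoglobulin heavy chain mRNA, had 1304 and 1023 for FO and 1365 and 1130.2 for MZ cells of WT mice, and 1204 and 895 for FO and 1011 and 1075 for MZ cells of cKO mice. The FO and MZ values of Ell2 overlapped in both genotypes, as did those of Xbp1 in cKO. Both WT FO values of Xbp1 lay just below both WT MZ values, as was so for 28.2% of the genes tested. For Xbp1 the 95% interval of the log2 difference, FO minus MZ, was -0.45 to 0.21 in WT and -0.35 to 0.32 in cKO, and for Ell2 it was -0.52 to 0.31 and -0.42 to 0.41. These intervals leave out a 1.5-fold difference in either direction, which is 0.585 on this scale. Xbp1 lies at chr11:5520659-5525893 and Ell2 at chr13:75706757-75772364, both on the plus strand.

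Zbtb20, a factor that supports long-lived plasma cells, had normalized counts of 2464 and 2735 for FO and 2938 and 4177 for MZ cells of WT mice, and of 2558 and 1674 for FO and 2682 and 2552 for MZ cells of cKO mice. Both WT MZ libraries were above both WT FO libraries, as for 28.2% of the genes tested, and the cKO values overlapped. The log2 difference, FO minus MZ, was -0.43 ± 0.22 (SE) in WT and -0.34 ± 0.22 (SE) in cKO, with limma adjusted p of 0.234 and 0.324, and the intervals, -0.94 to 0.08 and -0.85 to 0.17, allow a difference of more than 1.5-fold towards MZ. The gene lies at chr16:42875881-43642602 on the plus strand.

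Zbtb32 and Mybl1 had the lowest mean normalized counts of the 9 genes over the 8 libraries. Zbtb32, which is induced in plasma cells and restrains recall responses, had normalized counts of 31.9 and 79.0 for FO and 36.6 and 145 for MZ cells of WT mice, and of 14.6 and 32.2 for FO and 67.8 and 42.3 for MZ cells of cKO mice. In cKO both FO libraries lay below both MZ libraries, as for 32.0% of the genes tested. In WT, however, the replicates differed 2.47-fold in FO and 3.96-fold in MZ and the subsets overlapped. The log2 difference, FO minus MZ, was -0.53 ± 0.72 (SE) in WT and -1.26 ± 0.72 (SE) in cKO, with limma adjusted p of 0.684 and 0.266. The intervals of Zbtb32 (-2.21 to 1.15 and -2.94 to 0.42) show that a difference of this size could not be resolved with these libraries. Zbtb32 lies at chr7:30589681-30598909 on the minus strand.

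Mybl1, which encodes A-MYB, a factor expressed in germinal center B cells, had normalized counts of 56.9 and 110.4 for FO and 33.7 and 95.1 for MZ cells of WT mice, and of 58.2 and 46.3 for FO and 36.9 and 51.6 for MZ cells of cKO mice. The subsets overlapped in both genotypes, with log2 differences, FO minus MZ, of 0.48 ± 0.52 (SE) in WT and 0.25 ± 0.52 (SE) in cKO (limma adjusted p = 0.602 and 0.779). In WT, replicate 2 was the higher for both Zbtb32 and Mybl1 in both subsets. The macrophage gene Lyz2 showed the same order (141 and 466 for FO, 95.3 and 523 for MZ), and the 12 macrophage and monocyte markers summed to 936 and 1689.6 for FO and to 1037 and 2688 for MZ cells of WT mice, with Cd163 at or below 34.9 in every library. Their part in the spread of both genes was not tested. Mybl1 lies at chr1:9667415-9700209 on the minus strand.

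Per kilobase of annotated exon, which lets genes be compared, the order of levels differed between the subsets. In WT FO the mean normalized count per exon kilobase was highest for Bach2 (924), followed by Xbp1 (813) and Bcl6 (530.4), and the 2 libraries of these 3 genes did not overlap with those of the next gene in the order. Ell2 (118), Sdc1 (94.9) and Zbtb20 (84.6) came next, where the libraries of Ell2 lay just above those of Sdc1 and the libraries of Sdc1 and Zbtb20 overlapped, and Zbtb32 (23.5), Prdm1 (20.6) and Mybl1 (15.5) overlapped at the bottom. In WT MZ the order began with Xbp1 (883) and Bach2 (238), which stood clear of each other and of the rest. Below them Bcl6 (138), Ell2 (127), Zbtb20 (116), Prdm1 (78.3), Zbtb32 (38.5), Sdc1 (16.7) and Mybl1 (11.9) each overlapped with the next gene in the order. Over all 8 libraries Xbp1 stood at the 89.8th percentile of the genes tested on this scale and Mybl1 at the 12.6th. The exon length of Zbtb20 (30730 bases over all its isoforms) is larger than that of any 1 isoform, so its level per kilobase is a low estimate.

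On the same scale, the ratios of Bach2, Bcl6 and Sdc1 to Prdm1 separated the subsets in every library. This follows from the separate FO and MZ ranges of each gene, with Prdm1 in the other direction, and is no further evidence. The ratio of Bach2 to Prdm1 ran from 33.7 to 67.1 in the 4 FO libraries and from 1.94 to 5.40 in the 4 MZ libraries. For Bcl6 over Prdm1 the ranges were 21.4 to 39.9 and 1.24 to 2.89, and for Sdc1 over Prdm1 they were 3.18 to 8.42 and 0.0665 to 0.528. The ratio of Bach2 to Bcl6 stayed between 1.46 and 2.25 in all 8 libraries, with FO and MZ overlapping.

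**Figure D3:**
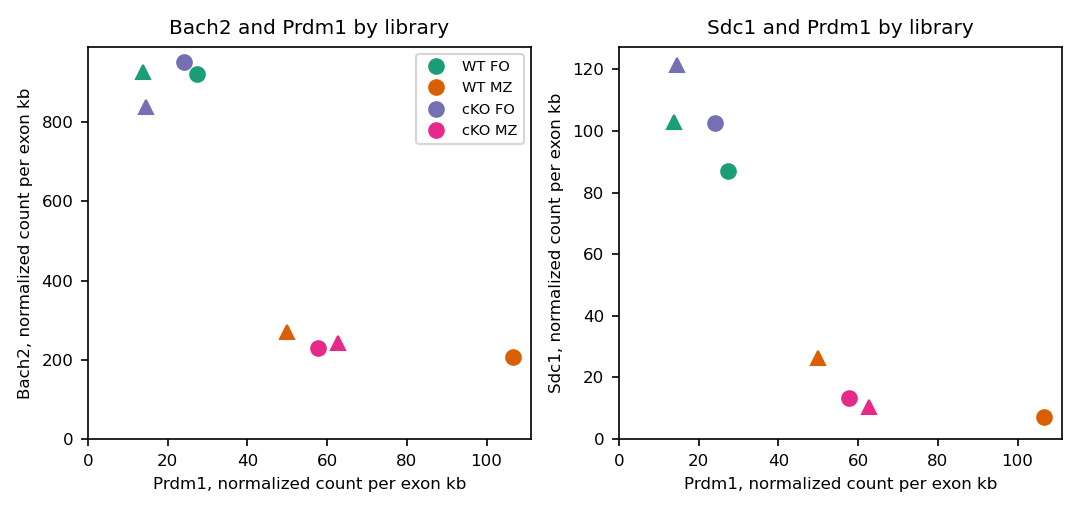
Bach2 (left panel, vertical axis) and Sdc1 (right panel, vertical axis) against Prdm1 (horizontal axes), all in normalized counts per exon kilobase on linear axes, with 1 point per library, circles for replicate 1, triangles for replicate 2 and colours for the 4 groups. The FO libraries lie at low Prdm1 and high Bach2 and Sdc1, with Bach2 to Prdm1 ratios of 33.7 to 67.1, and the MZ libraries at higher Prdm1 and low Bach2 and Sdc1, with ratios of 1.94 to 5.40.

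Genes with which these regulators work were read from 6 lists. Their counts stand beside shares over all genes tested of 4.62% called higher in FO and 7.41% in MZ in WT. In cKO these shares were 5.54% and 8.18%. Of the plasma cell programme, 13 of 16 genes were tested, and in WT 2 were called higher in MZ and 1 in FO, with a median log2 difference, FO minus MZ, of -0.16 against 0.0048 over all genes. The 2 were Mzb1, a chaperone of secreted IgM (145 and 167 for FO, 883 and 1038 for MZ, log2 difference -2.61 ± 0.20, SE), and Derl3, a factor of endoplasmic reticulum quality control (-2.01 ± 0.39). Fkbp11, a folding enzyme of secretory cells, was higher in FO (96.8 and 89.4 against 23.1 and 46.2), with a log2 difference of 1.48 ± 0.39. In cKO the same 3 genes were called in the same directions, and Txndc5, a disulfide isomerase, was called higher in FO besides (0.98 ± 0.29, limma adjusted p = 0.0487). Its WT difference was close to that (0.97 ± 0.29, limma adjusted p = 0.0562). The list thus had calls both ways, and its regulator Irf4 was not called.

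Of the 16 secretory targets of XBP1, 2 were called higher in MZ and 0 in FO in each genotype, with median log2 differences of -0.16 in WT and -0.11 in cKO. Over all genes tested, 7.41% in WT and 8.18% in cKO were called higher in MZ. Pdia4, a disulfide isomerase, had normalized counts of 4762 and 5088 for FO and 27967 and 29442 for MZ cells of WT mice. Its log2 difference, FO minus MZ, was -2.54 ± 0.12 (SE) in WT and -2.50 ± 0.12 in cKO. Edem1, which sorts misfolded glycoproteins for degradation, differed by -0.94 ± 0.08 and -0.81 ± 0.08. The other 14 targets were not called, and neither was Xbp1 itself. Of these, Herpud1 was higher in FO (0.53 in WT and 0.56 in cKO, limma adjusted p = 0.00585 and 0.00383) and missed only the fold cutoff.

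Of 12 naive B cell genes known as targets of Blimp-1 repression, 3 were called higher in FO and 1 in MZ in WT, the median log2 difference being 0.13. Those higher in FO were Ciita, the activator of MHC class II (0.77 ± 0.14), Id3, an inhibitor of E proteins (0.69 ± 0.17), and Foxo1, a forkhead factor of resting B cells (0.62 ± 0.09). Myc, the growth regulator, was higher in MZ at 31481 and 17298 against 7652 and 5852 in FO (-1.80 ± 0.33). In cKO, Ciita, Foxo1 and Myc were called in the same directions, and Id3 was not (0.35 ± 0.17, limma adjusted p = 0.198).

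The germinal center list had 15 genes tested, of which 2 in WT and 4 in cKO were called higher in FO and 0 in MZ, with median log2 differences of 0.36 and 0.66. Lmo2, a LIM domain factor of germinal center B cells, had normalized counts of 6503 and 7707 for FO and 2451 and 3043 for MZ cells of WT mice (1.37 ± 0.15). Plekho1 was called in both genotypes (0.91 ± 0.10 in WT and 1.07 ± 0.10 in cKO). Cxcr4, the chemokine receptor of the dark zone, and Gna13, a G protein subunit that confines germinal center cells, were called in cKO alone, with log2 differences in WT of 1.03 ± 0.45 and 0.51 ± 0.14. A call in cKO alone does not show that the genotypes differ, and in the interaction test 0 genes of the list were called and 0 had an unadjusted p under 0.05 (limma).

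Of 19 partners and corepressors, 2 were called higher in FO in each genotype, Aff3 (0.94 ± 0.14 in WT) and Aff4 (0.78 ± 0.13), which are scaffolds of the elongation complexes that hold ELL proteins. In WT, Eaf2, a partner of ELL proteins (-1.09 ± 0.23), and Tbl1xr1, a subunit of the corepressor complex used by BCL6 (-0.63 ± 0.11), were called higher in MZ. In cKO neither was called (Eaf2 -0.39 ± 0.23, Tbl1xr1 -0.48 ± 0.11). There Tbl1xr1 had a limma adjusted p of 0.0190 and missed only the fold cutoff. Among 17 paralogs tested, 2 were called higher in MZ in both genotypes although their relatives among the 9 were not called. Mybl2, a relative of Mybl1 that is active in dividing cells, had normalized counts of 49.9 and 71.4 for FO and 241 and 274 for MZ cells of WT mice (-2.09 ± 0.27), and Ell3, a relative of Ell2, had 77.8 and 52.3 for FO and 288 and 239 for MZ (-2.02 ± 0.23). Zbtb7b was called higher in FO in cKO alone (0.60 ± 0.13). In WT, at 0.48 ± 0.13 (limma adjusted p = 0.0456), it missed only the fold cutoff. A call in 1 genotype alone does not show that the genotypes differ. The median log2 differences of the partners and the paralogs in WT were 0.031 and 0.10.

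**Figure D4:**
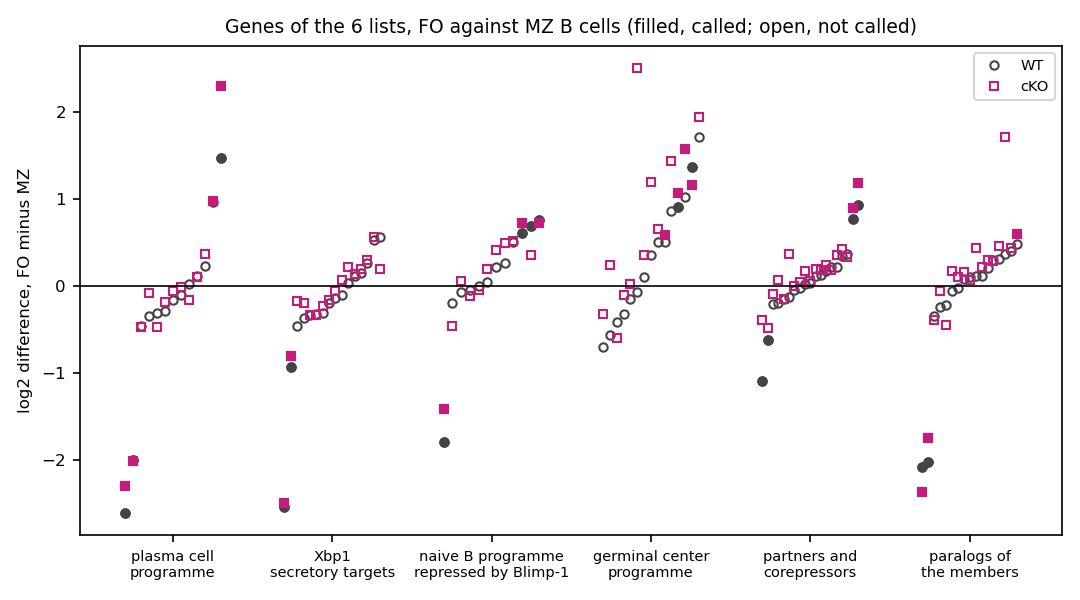
Log2 differences, FO minus MZ (vertical axis), of the tested genes of the 6 lists (horizontal axis, genes ordered within each list by the WT value), with grey circles for WT, pink squares for cKO and filled points for called genes. Most genes lie near 0 in both genotypes, and the called genes of the plasma cell list lie on both sides, from Mzb1 at -2.61 to Fkbp11 at 1.48 in WT.

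The genes most like Prdm1, Bach2 and Bcl6 over the 8 libraries were found by the root mean square difference of centred log2 values, a description in which the subset contrast dominates. Nearest to Prdm1 were Rnf43 (0.149), Ptpn22 (0.194) and Tmtc4 (0.201), against a median of 1.02 over all genes tested. Rnf43 had normalized counts of 107 and 67.5 for FO and 443 and 223 for MZ cells of WT mice, with replicate 2 the lower in both, as for Prdm1. Nearest to Bach2 were Pgap1 (0.119), Zfp318 (0.121) and Mex3b (0.125), with a median of 0.999, and nearest to Bcl6 were Itgb7 (0.119), Pgap1 (0.139) and Gm23037 (0.147), with a median of 1.08.

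None of the 9 genes passed the test between genotypes in either subset. In MZ cells 0 of 9 were called by limma, DESeq2 or edgeR, and 0 of 9 had an unadjusted p under 0.05 in limma, whereas 596 of 14761 genes did. Over the whole table limma called 0.0339% of genes in MZ, DESeq2 0.29% and edgeR 0.0271%. The members' median log2 difference, cKO minus WT, was -0.28 against -0.015 over all genes, with 8 of 9 below 0 against 7832 of 14761. Both cKO MZ libraries lay below both WT MZ libraries for Xbp1, Zbtb20 and Ell2, as they did for 18.7% of the genes tested.

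The intervals of those 3 genes all reached 0. Xbp1 had a mean normalized count of 2868 ± 112 in WT MZ and 2330.5 ± 284 in cKO MZ (SD, n = 2), with a log2 difference of -0.30 (95% interval -0.64 to 0.03). For Zbtb20 the difference was -0.42 (-0.93 to 0.09), and for Ell2 it was -0.25 (-0.67 to 0.16). The remaining 6 genes overlapped between genotypes in MZ, and for Bach2 the interval was -0.30 to 0.31, for Bcl6 -0.59 to 0.10 and for Prdm1 -1.30 to 0.75. A 1.5-fold change of Bach2 therefore lay outside its interval, and for Prdm1, Sdc1, Zbtb32 and Mybl1 the intervals allow changes of more than 1.5-fold in both directions.

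In FO cells the values of all 9 genes overlapped between genotypes, whereas over all genes tested both cKO libraries lay above both WT libraries for 10.9% and below them for 13.1%. Again 0 were called by limma, DESeq2 or edgeR and 0 had an unadjusted p under 0.05 in limma, against 0.0677%, 0.161% and 0.061% of genes called over all genes tested and 382 of 14761 under that p. The log2 differences, cKO minus WT, ran from -1.17 for Zbtb32 (interval -2.85 to 0.50) to 0.24 for Sdc1 (-0.96 to 1.44), with a median of -0.15 against -0.0099 over all genes. The intervals of Bach2 (-0.35 to 0.26), Bcl6 (-0.24 to 0.45) and Xbp1 (-0.53 to 0.14) left out a 1.5-fold change.

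**Figure D5:**
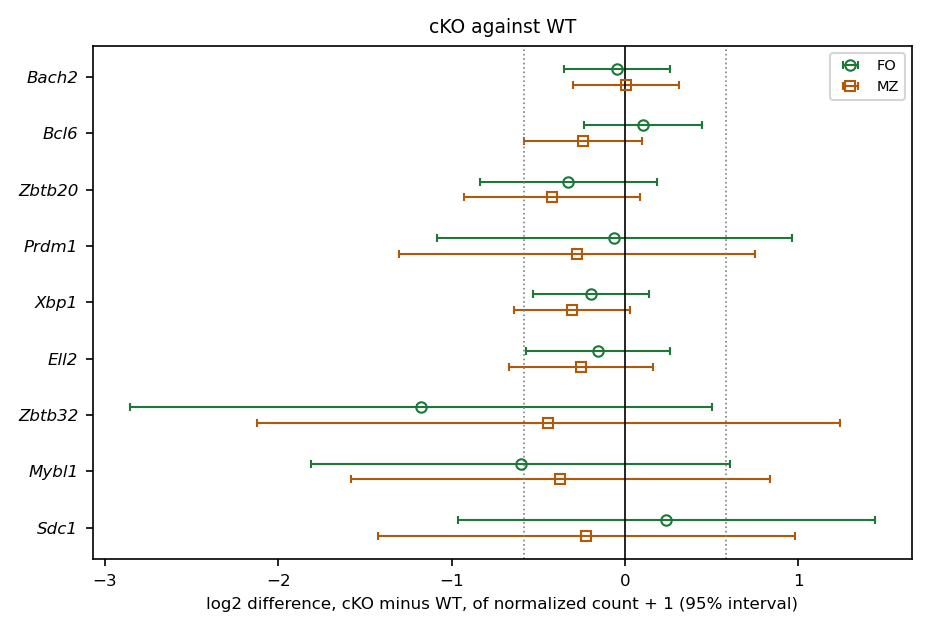
Log2 differences, cKO minus WT, of normalized count + 1 (horizontal axis) for the 9 genes (vertical axis) in FO (circles) and MZ (squares), with bars for the 95% interval, open points since no gene was called and dotted lines at 1.5-fold. Every interval reaches 0, and they are narrowest for Bach2 and widest for Zbtb32.

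With both subsets in 1 estimate, 0 of 9 genes were called by limma, DESeq2 or edgeR, against 0.149%, 0.442% and 0.142% of all genes. In limma 2 of 9 had an unadjusted p under 0.05, as did 1230 of 14761 genes. These were Zbtb20, with a log2 difference of -0.37 ± 0.15 (SE) and an adjusted p of 0.56, and Xbp1, with -0.25 ± 0.10 (SE) and 0.55. Neither passed the correction for all genes tested.

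The subset differences themselves were compared between genotypes by the interaction of genotype and subset. By limma, DESeq2 or edgeR 0 of the 9 genes were called, as were 0% of all genes, and 0 had an unadjusted p under 0.05 in limma, where 94 of 14761 were under that p. The smallest unadjusted p among the 9 was that of Bcl6, at 0.134 in limma, whose genotype difference in MZ minus that in FO was -0.35 ± 0.21 (SE). For Prdm1 the interval of this difference was -1.67 to 1.23 and for Sdc1 -2.16 to 1.24, and both span a 2-fold difference in either direction, while for Bach2 it was -0.38 to 0.48. In the 6 lists, 0 of 92 genes tested were called in any cKO against WT comparison or in the interaction (limma). At an unadjusted limma p under 0.05 there were 6 of 92 in MZ, 0 in FO, 10 with both subsets and 0 in the interaction. The shares of all genes tested under that p were 4.04%, 2.59%, 8.33% and 0.637%.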

How the data were processed

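Splenic B cells were sorted into FO and MZ cells, total RNA was depleted of ribosomal RNA and 50-base single-end reads were made. The authors deposited 1 table of normalized counts (a signal scaled per library) for 27928 genes. Per the labels the processing used HISAT2, featureCounts or HTSeq and DESeq2 on mm10, with versions, strand setting and annotation not given in the sources used here. The deposited signal values were whole multiples of 1 read's worth in 100% of cases (tolerance 0.001 reads), so whole reads were recovered and library size factors matched the median of ratios. Depth was 21546552 to 25083552 reads on genes. The table also held 256343 blank lines. Gene identifiers were matched to GENCODE M21 for 27872 genes.

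The 14761 genes whose normalized count averaged 10 or more were tested in a single fit of the 8 libraries, with limma 3.58.1 (R 4.3.3, eBayes with trend) on log2(normalized count + 1), a scale that understates the change of low genes. The log2 differences, SEs and 95% intervals come from this fit, and p-values were adjusted by Benjamini-Hochberg over all genes tested. Calls needed an adjusted p of at most 0.05 and a fold of at least 1.5. The models were tested on simulated data. DESeq2 1.42.0 and edgeR 4.0.16 (quasi-likelihood) on the recovered reads, TMM and quantile scaling, a pseudocount of 0.5, no filter, fits of the 4 libraries compared, no fold cutoff or a 2-fold one, a replicate block and leaving out each library were alternatives. Genes named were the 9 members, checks of genotype and sort, up to 5 called genes of each list with the largest WT difference, and the 3 genes most like Prdm1, Bach2 and Bcl6. Irf4, Jchain, Lyz2, Cd163, Ighg3, Igha, Tnfrsf17, Bhlhe40, Cd5, Spn and Herpud1 of the lists, Bach2os, Ddx3y and Xist were added after their values were seen. The members and lists were chosen with earlier results of these data known. The 8 ATAC-seq samples were not analysed here.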

Additional observations from a re-analysis of the deposited data

How the results depend on the processing

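Bach2 and Bcl6 were called higher in FO in both genotypes under every alternative run, and Sdc1 under all but the fit of the 4 WT libraries alone. The number of the 9 genes called higher in MZ, 1 (Prdm1) in each genotype, was 0 in WT with only the 4 libraries compared and 0 in cKO by quantile normalization, and ranged from 0 to 1 in each genotype when single libraries were left out. No source ties replicate numbers to a mouse or day. The replicate differences of FO and MZ were correlated in WT (0.591) but not in cKO (-0.0015), and between WT MZ and cKO MZ the correlation was -0.296. The numbers were thus not shown to pair the libraries in both genotypes, and the fit reported used no pairing. A replicate block called the same 4 genes in each genotype (Prdm1 at limma adjusted p = 0.00426 in WT and 0.00613 in cKO), and with the cKO MZ numbers exchanged, an alternative chosen after seeing the data, 2 genes, Prdm1 and Zbtb32 (0.0273), were called higher in MZ in cKO. No alternative called any of the 9 genes in cKO against WT or in the interaction. Differences near 0 changed sign. Ell2 in cKO, FO minus MZ, was 0.0079 by DESeq2 and 0.0030 by edgeR, and Bach2 in MZ, cKO minus WT, was -0.0079 by DESeq2.

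With single libraries left out, the log2 difference FO minus MZ ranged in WT from -1.51 to 0.45 for Zbtb32, 1.83 to 3.69 for Sdc1, -0.28 to 0.071 for Ell2 and -0.26 to 1.21 for Mybl1, and in cKO from -0.21 to 0.18 for Xbp1 and -0.22 to 0.21 for Ell2. The difference cKO minus WT ranged in MZ from -0.82 to 0.27 for Prdm1, -0.19 to 0.20 for Bach2, -1.15 to 0.71 for Sdc1, -1.42 to 0.54 for Zbtb32 and -1.11 to 0.36 for Mybl1, and in FO from -0.55 to 0.43 for Prdm1, -0.37 to 0.060 for Ell2, -0.047 to 0.26 for Bcl6 and -0.14 to 0.044 for Bach2. The cause was not tested. Over all genes, calls in FO against MZ ranged from 1014 to 2497 in WT (1776 in the fit reported) and from 1073 to 2889 in cKO (2026), and in cKO against WT from 4 to 48 in MZ (5), 4 to 24 in FO (10) and 15 to 78 with both subsets (22). With 2 libraries a group, only large differences of the low genes could be resolved.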
